A study of Mus musculus with 4 samples.

Results

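The genes described here are 10 mouse genes of the growing egg cell, or oocyte: the transcription factor genes Figla, Nobox, Lhx8 and Sohlh1, the maternal factor gene Nlrp5, the egg-coat genes Zp1, Zp2 and Zp3, and the secreted growth factor genes Gdf9 and Bmp15. They were taken by name from a list, and all 10 were found among 22367 protein-coding genes annotated on chromosomes 1 to 19, X and Y. A gene was called bound when the midpoint of a KDM5C ChIP-Seq peak lay within 1 kb of any annotated transcription start site (TSS) of that gene. KDM5C, encoded on the X chromosome, is a demethylase that acts on methylated lysine 4 of histone H3. It was profiled in male mouse epiblast-like cells labelled day 2, which the study's methods place 2 days past the epiblast-like stage. The labels give the strain as C57BL/6J, whereas the methods name other and mixed backgrounds for the alleles. All samples, WT and KO alike, carried a truncated Tsix, whose RNA runs antisense to Xist and represses it (XΔTsixY). WT cells had an intact Kdm5c, and KO cells a Kdm5c allele without the exons of its catalytic JmjC domain, which according to the study leaves little mutant protein. Each genotype had 1 immunoprecipitated and 1 input sample in the labels, 4 samples in all, and 1 deposited peak list.

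Oocyte genes of this kind are silent in most somatic cells and are switched on in the ovary as follicles form. FIGLA, NOBOX, LHX8 and SOHLH1 are transcription factors needed for early follicles, and FIGLA acts on the Zp genes through short sequences called E-boxes. Many germ line genes have promoters dense in CpG dinucleotides, which DNA methylation keeps silent in the soma, whereas other oocyte genes have CpG-poor promoters. The question here was which of these promoters KDM5C occupied in epiblast-like cells, and how occupancy related to promoter CpG content.

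The WT list held 6916 peaks on assembled chromosomes and the KO list 44. The score deposited for a peak is its −log10 q times 10, cut to a whole number, and its median over the WT list was 82.0 (quartiles 48.0 and 162). By the study's methods WT peaks were called on replicates together and KO peaks on 1 sample. The labels hold 1 WT immunoprecipitated sample, so a further WT replicate behind the list is not among the 4 samples described here. With these lists, genotype and the number of samples called cannot be told apart. With a single list per genotype there is no spread between replicates and no test. The peak lists hold no read counts, so no counting error could be given for a peak. Peak lists do not measure RNA, so neither the loss of Kdm5c nor the cell type could be checked against expression.

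KDM5C was called at 1 of the 10 oocyte promoters in WT cells, that of Figla, and at 0 in KO cells. Among all protein-coding genes, 24.0% had a WT peak and 0.0939% a KO peak by the same rule. The share of bound oocyte genes was 10.0%, and its exact Clopper-Pearson 95% interval, 0.253 to 44.5%, spans the value for all genes. With 10 genes this interval covers counting error only, and the genes were not drawn at random. At the KO background, 0 of 10 is not a result about these genes.

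The sequences below show the range of CpG content behind this result, read from the mm9 assembly 5′ to 3′ on the strand of the gene, with each CpG in capitals. The first pair comes from Figla, the only bound gene of the 10. The 200 bases before its TSS held 14 CpGs, the most of any oocyte gene at its reference TSS, and the 200 bases around the peak summit held 13.
Figla, before the TSS (chr6:85966985-85967184, plus strand): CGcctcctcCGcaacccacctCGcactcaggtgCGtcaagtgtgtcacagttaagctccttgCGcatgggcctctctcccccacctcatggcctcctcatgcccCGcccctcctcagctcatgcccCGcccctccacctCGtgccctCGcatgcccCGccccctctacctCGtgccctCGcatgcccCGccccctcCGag
Figla, around the peak summit (chr6:85967313-85967512, plus strand): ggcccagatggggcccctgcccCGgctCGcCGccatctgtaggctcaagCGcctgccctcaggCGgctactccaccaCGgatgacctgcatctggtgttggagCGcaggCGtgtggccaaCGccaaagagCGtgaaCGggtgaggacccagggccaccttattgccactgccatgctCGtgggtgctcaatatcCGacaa

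Nobox and Zp1 are shown as unbound genes. The 200 bases before the Nobox TSS held 10 CpGs and those before the Zp1 TSS held 1, the fewest of the 10 genes.
Nobox, before the TSS (chr6:43259562-43259761, minus strand): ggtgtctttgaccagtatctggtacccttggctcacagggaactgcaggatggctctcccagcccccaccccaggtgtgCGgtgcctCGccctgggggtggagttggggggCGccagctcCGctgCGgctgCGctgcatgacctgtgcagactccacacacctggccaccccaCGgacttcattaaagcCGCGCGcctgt
Zp1, before the TSS (chr19:10995123-10995322, minus strand): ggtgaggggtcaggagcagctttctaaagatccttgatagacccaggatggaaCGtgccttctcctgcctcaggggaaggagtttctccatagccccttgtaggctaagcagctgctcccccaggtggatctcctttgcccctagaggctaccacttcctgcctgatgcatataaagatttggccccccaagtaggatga

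Gdf9 is shown because it has a further annotated start site in CpG-rich sequence and was not bound there. The 200 bases before this site held 13 CpGs.
Gdf9, before its CpG-rich start site (chr11:53244325-53244524, plus strand): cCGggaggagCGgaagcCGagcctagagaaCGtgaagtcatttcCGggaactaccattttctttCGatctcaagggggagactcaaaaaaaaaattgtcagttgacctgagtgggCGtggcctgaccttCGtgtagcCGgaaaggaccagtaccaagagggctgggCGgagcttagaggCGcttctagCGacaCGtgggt

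Figla encodes a basic helix-loop-helix factor that directs primordial follicle formation. The WT peak spanned chr6:85966907-85967584, 678 bp, from -278 to 399 bp relative to the single annotated TSS (chr6 85967185, plus strand). Its midpoint lay 60 bp and its summit 228 bp downstream of the TSS. The summit fell in coding sequence of exon 1, which ends 266 bp downstream of the TSS. The peak therefore covered the proximal promoter, all of exon 1 and the start of the first intron.

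The Figla peak was a modest one. Its score was 61, its fold enrichment over input 4.01 and its −log10 q 6.12. By score it ranked 4387 of 6916 WT peaks, above 35.8% of them and below the median of 82.0, whereas its fold enrichment was above 58.6% of them and above the median of 3.72. Against 5064 WT peaks at protein-coding promoters, whose median score was 87.0, it stood above 33.9%. The 964 WT peaks within 1 kb of any TSS of genes CpG-poor at their reference TSS had a median score of 76.0. Against these the Figla peak stood above 38.8% by score and 61.9% by fold enrichment. Of the 960 such genes with a peak, 366 were CpG-rich at another TSS, so part of these peaks may lie at CpG-rich start sites. No KO peak overlapped the Figla peak. Where peaks were limited to scores at or above the WT median, 0 of the 10 genes were bound. The share of all genes bound at this limit was not computed, so this count is not a result about these genes.

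Nobox, an oocyte homeobox gene, had no WT peak within 100 kb of its TSS (chr6 43259561, minus strand), and the nearest lay 356 kb away. The same held for Lhx8, a LIM-homeobox gene needed for oocyte differentiation (chr3 153993615, minus strand), whose nearest peak lay 412 kb from any of its 5 start sites. Sohlh1, a helix-loop-helix gene of early germ cells of both sexes (chr2 25702768, minus strand), had its nearest peak 140 kb away. The KO list held only 44 peaks, and the nearest lay 5.93 Mb from Nobox, 15.1 Mb from Lhx8 and 72.8 Mb from Sohlh1. Of the 4 transcription factor genes, only Figla was thus bound, and the other 3 lay in stretches free of called peaks. Such stretches are usual, since the median distance to a WT peak was 117 kb for CpG-poor genes without one.

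Nlrp5, also known as Mater, encodes a maternal protein that the early embryo needs (chr7 24170908, plus strand). It was the most isolated of the 10, with its nearest WT peak 678 kb from any TSS. The peak lists use uniquely mapped reads. Nlrp5 has many paralogues on the same chromosome, and reads from sequence they share can be lost. The part of that filter in the lack of a peak was not tested.

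The egg coat, or zona pellucida, is built by glycoproteins that the oocyte secretes, among them ZP1, ZP2 and ZP3. None of the 3 genes was bound. Zp1 (chr19 10995122, minus strand) had the nearest peak of all unbound oocyte genes, 20.2 kb upstream with a score of 476. That peak lay 3649 bp from the closest protein-coding TSS, that of Gpr44. Zp2 (chr7 127288804, minus strand) had its nearest peak at 56.5 kb, with a score of 61, and Zp3 (chr5 136455969, plus strand) at 111 kb, with a score of 78. Zp1 also had 5 WT peaks within 100 kb, against 1 for Zp2 and 0 for Zp3, so the 3 genes sit in unlike surroundings.

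GDF9 and BMP15 are related ligands of the TGF-beta family by which the oocyte signals to granulosa cells. Gdf9 (chr11 53246801, plus strand) had its nearest WT peak at 86.9 kb, with a score of 217. Bmp15 (chrX 5897839, minus strand), the only X-linked gene of the 10, had its nearest at 238 kb, with a score of 138. Neither was bound. The nearest KO peak lay 5.52 Mb from Gdf9 and 134 Mb from Bmp15.

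The limit of 1 kb did not decide these calls. Figla lay inside it at 60 bp, and the next gene, Zp1, lay outside it at 20.2 kb. Over the 9 unbound genes the median distance to a WT peak was 140 kb. For all CpG-poor protein-coding genes without a WT peak it was 117 kb, and 5 of the 9 lay farther than this. The distances of the unbound genes were thus of the same order as those of other unbound CpG-poor genes.

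**Figure D1:**
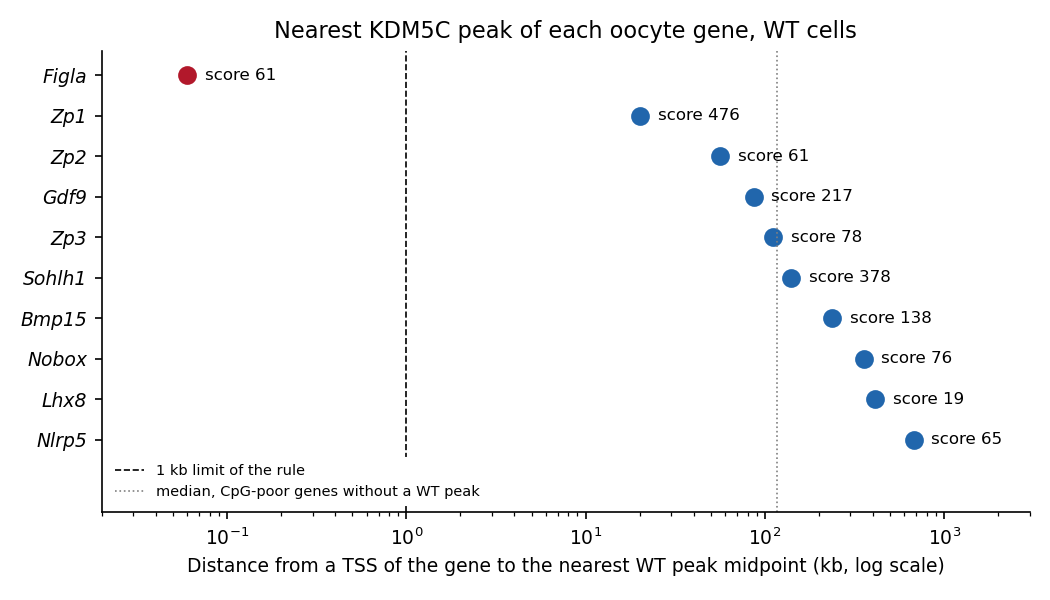
Distance in kb (log scale) from the closest annotated TSS of each of the 10 genes to the midpoint of the nearest WT peak, with the score of that peak beside each point, Figla in red and unbound genes in blue. Figla alone lies left of the dashed 1 kb line, at 60 bp, and the other 9 lie from 20.2 to 678 kb, around the dotted line at 117 kb, the median of CpG-poor genes without a WT peak.

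Promoter CpG content was measured over 500 bp on either side of a reference TSS, the most upstream TSS of a protein-coding transcript. The CpG ratio is the number of CpGs observed over the number that the C and G content gives. A promoter was called CpG-rich at a ratio of at least 0.6 with a GC content of at least 50%, and CpG-poor otherwise. None of the 10 oocyte promoters was CpG-rich, whereas 9969 of the 22367 protein-coding promoters were. Of all CpG-rich promoters 44.1% had a WT peak, against 7.74% of the CpG-poor ones. The oocyte genes thus fell in the class where KDM5C was called less often, and 1 of 10 was set beside the 7.74%. The class rests on the reference TSS and binding on any TSS. The 7.74% therefore pools genes CpG-poor at every TSS, 5.20% of them bound, with genes CpG-rich at another, 37.7% bound.

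Figla had the highest GC content of the 10 (61.8%) and the most CpGs (39 in 1001 bp), with a ratio of 0.43. Lhx8 had the highest ratio, 0.61, but its GC content of 49.4% fell just short of the limit, and it held 37 CpGs. Zp3 followed with a ratio of 0.41 (27 CpGs), then Nlrp5 with 0.37 (20 CpGs). Nobox (27 CpGs) and Sohlh1 (29 CpGs) both had a ratio of 0.36. These genes formed a middle group, with Figla in it by ratio and above it by GC content.

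The other genes were poorer. Zp2 had a ratio of 0.25 (15 CpGs), Gdf9 of 0.21 (12 CpGs), Bmp15 of 0.18 (9 CpGs) and Zp1 of 0.11 (9 CpGs). The Zp1 ratio was above only 8.90% of protein-coding promoters, although its GC content was 56.1%. The ratios of the egg-coat genes thus ran from 0.11 to 0.41, within a range of 0.11 to 0.61 for all 10.

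Across protein-coding genes the share with a WT peak rose with the CpG ratio. It was 1.72% at ratios from 0 to 0.2, 5.44% from 0.2 to 0.4, 18.1% from 0.4 to 0.6, 38.4% from 0.6 to 0.8 and 49.8% from 0.8 up. The lowest bin held Zp1 and Bmp15, the next held Nobox, Sohlh1, Nlrp5, Zp2 and Gdf9, the middle one Figla and Zp3, and the bin from 0.6 to 0.8 held Lhx8. Adding up the shares of these bins over the 10 genes gives 1.05 bound genes, and 1 was bound. The count was therefore close to the background of genes with like CpG ratios.

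The bound gene was not the one of highest ratio. The ratio of Figla stood 0.07 above the median of the unbound genes, 0.36, which is less than the SD over the 10 genes, 0.15. The gap was 0.17 with 250 bp on either side of the TSS and 0.12 with 1000 bp, so its size depended on the window. Lhx8, with a higher ratio, had no peak, and Zp3, with nearly the same ratio as Figla, had none. Of 137 protein-coding promoters with a ratio from 0.4 to 0.5 and a GC content of at least 60%, like Figla, 21.2% had a WT peak. Of 257 with a ratio of at least 0.6 and a GC content from 45 to 50%, like Lhx8, 26.1% did. These ranges were set after the values of both genes were seen. In each of these ranges most promoters were unbound.

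**Figure D2:**
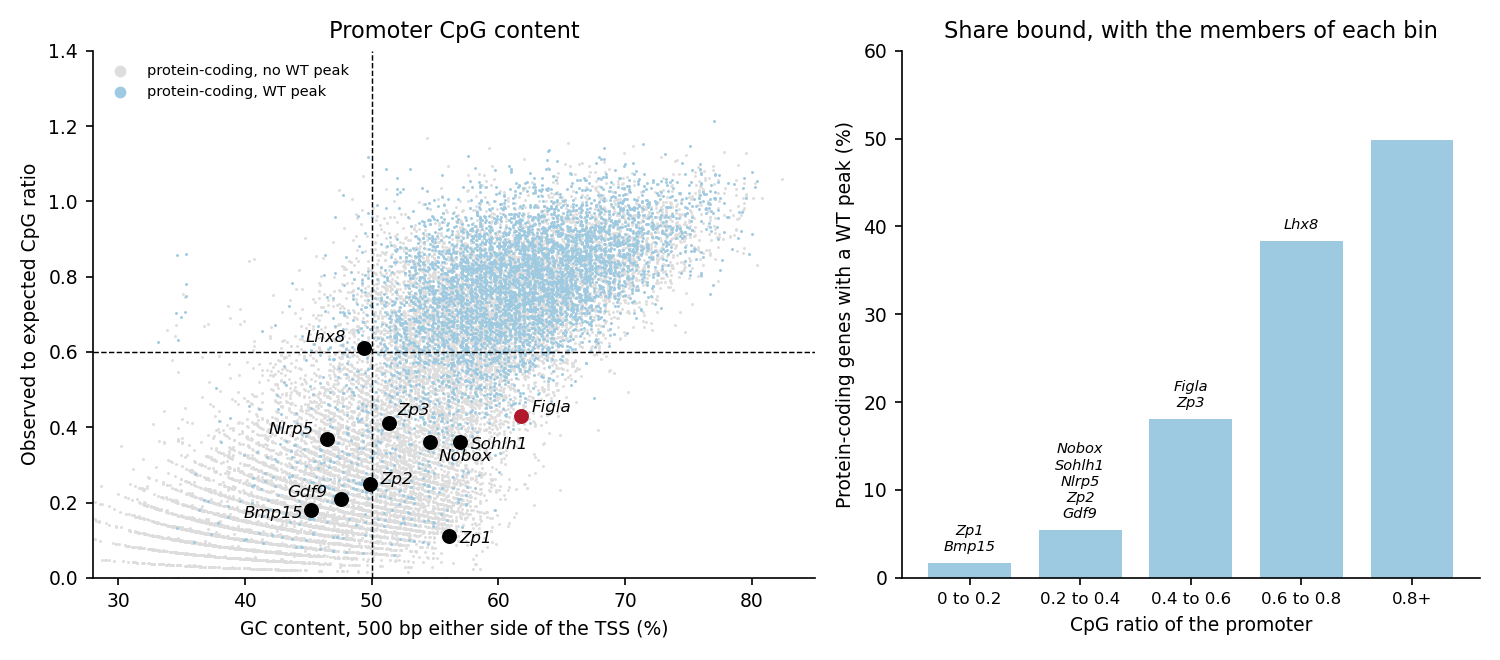
Left, the observed to expected CpG ratio (vertical) against GC content (%, horizontal) for all protein-coding promoters (light blue with a WT peak, grey without), with the 10 oocyte genes as large points, Figla in red and unbound genes in black, and dashed lines at the CpG-rich limits of 50% and 0.6. Right, the percentage of protein-coding genes with a WT peak in each bin of CpG ratio, from 1.72% to 49.8%, with the oocyte genes of each bin named above its bar; none lies in the upper right field of the left panel.

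A narrower view gave the same picture for the reference TSS. In windows of 200 bp, taken every 100 bp within 1 kb of the TSS, the richest window of Figla held 14 CpGs and was centred 100 bp upstream of the TSS, inside the peak. That of Lhx8 also held 14, centred 700 bp downstream, and those of Zp3, Nobox and Sohlh1 held 11, 10 and 10. The other genes held from 4 (Zp1) to 9 (Zp2). Of 2059 protein-coding genes whose richest window held 10 to 14 CpGs, 9.71% had a WT peak, against 4.21% of 4343 genes with 5 to 9, 1.05% of 3703 with 0 to 4, 23.0% of 2552 with 15 to 19 and 44.8% of 9710 with 20 or more. These bins were set after the values were seen. Figla was 1 of 5 oocyte genes in the range from 10 to 14 and the only bound one. The peak region of Figla itself held 32 CpGs at a ratio of 0.49 and a GC content of 64.5%, and so was CpG-poor too.

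Further start sites changed the class of 2 genes. Of the 5 annotated start sites of Lhx8, 3 downstream of the reference TSS lay in CpG-rich sequence, with ratios from 0.69 to 0.82. For Gdf9, a transcript annotated as noncoding starts at -2276 bp from the coding TSS, with a ratio of 0.79 and 65 CpGs. This site lies 192 bp from the TSS of Uqcrq, a gene of the mitochondrial respiratory chain on the opposite strand, which had no WT peak either. Of 971 protein-coding genes that were CpG-poor at the reference TSS and CpG-rich at another, 37.7% had a WT peak, against 5.20% of 11427 that were CpG-poor at every TSS. Lhx8 and Gdf9 belong to the first class and lacked a peak at any TSS. Figla and the remaining oocyte genes belong to the second class, and are to be read against its 5.20%.

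**Figure D3:**
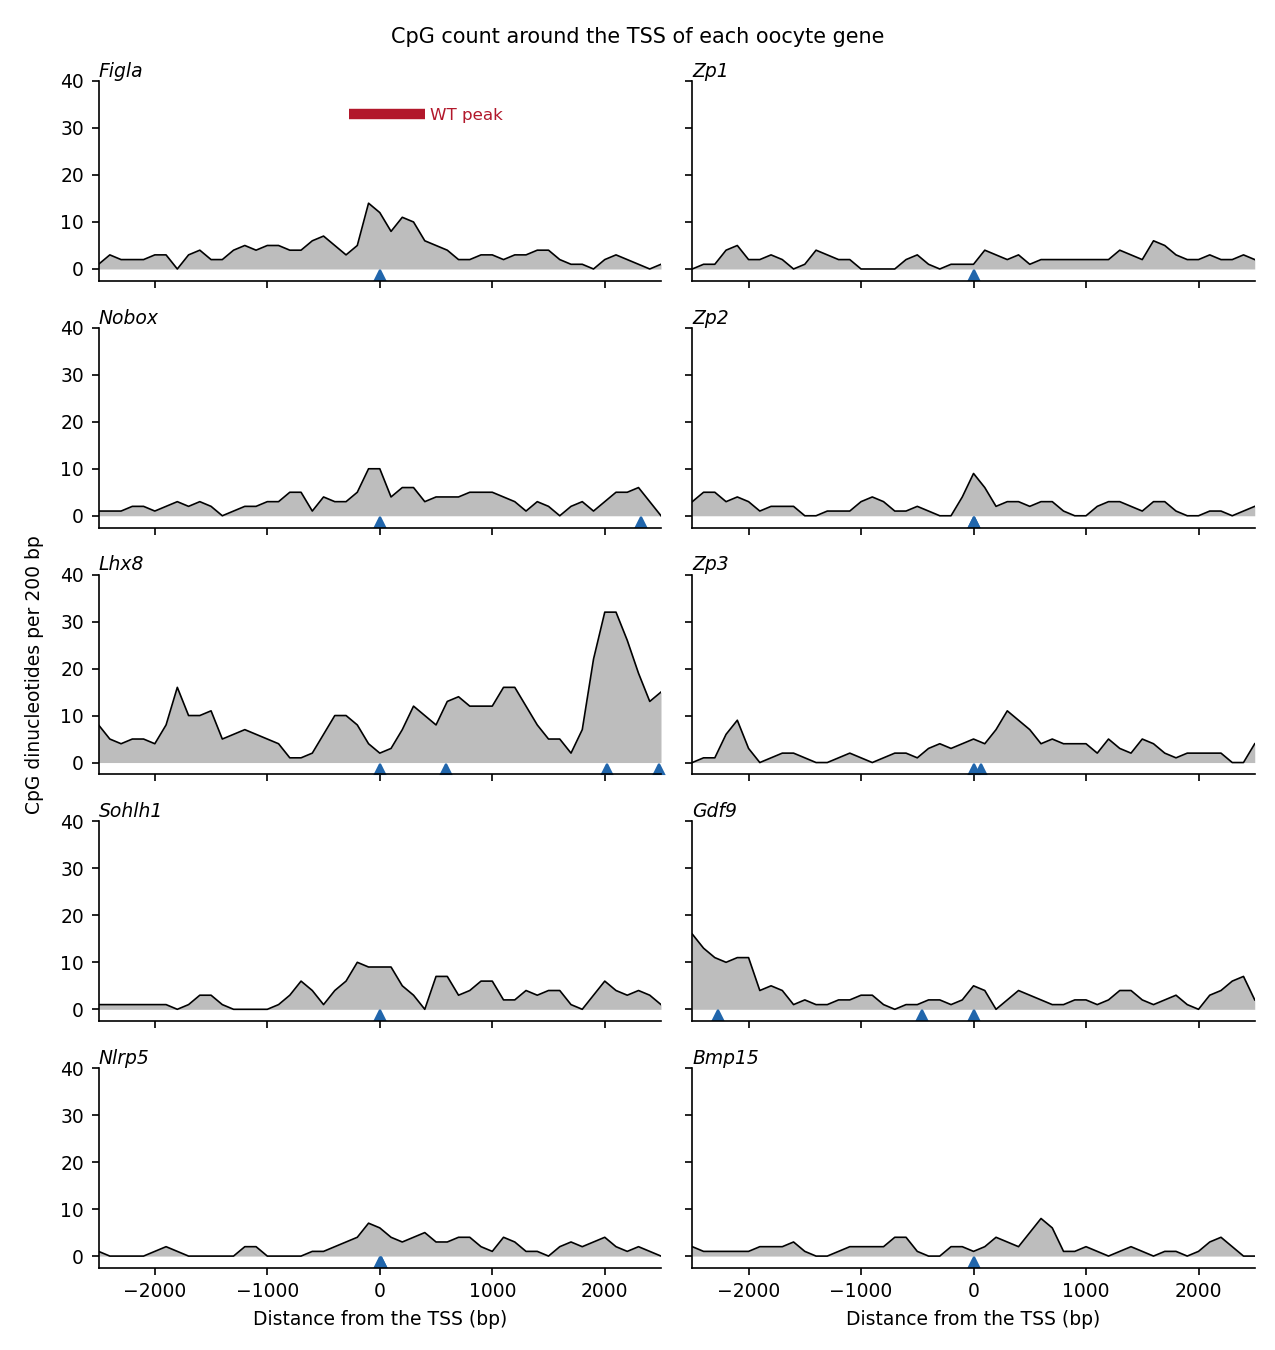
Number of CpG dinucleotides in 200 bp windows, taken every 100 bp, against distance in bp from the reference TSS of each gene (negative values upstream), with annotated start sites as blue triangles and the WT peak of Figla as a red bar. Figla and Nobox rise to 14 and 10 CpGs near the TSS, Zp1 stays at or below 4 within 1 kb, and Lhx8 reaches 32, the highest value of the 10 genes, with no peak called.

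Apart from Uqcrq, no other gene started within 5 kb of the reference TSS of an oocyte gene. The nearest TSS of another gene lay 55524 bp from that of Figla (Dusp11) and 5568 bp from that of Zp3 (Srcrb4d). Dusp11 had its own WT peak (score 123, fold enrichment 4.10). The nearest neighbours of the other genes were Arhgef5 (Nobox), Slc44a5 (Lhx8), Kcnt1 (Sohlh1), the miRNA gene AC159288.1 (Nlrp5), Gpr44 (Zp1), Anks4b (Zp2), Uqcrq (Gdf9) and Shroom4 (Bmp15), none with a WT peak by the same rule. Among the neighbours only Dusp11 thus had a WT peak, where 24.0% of all protein-coding genes did. The peaks of Figla and Dusp11 were separate. Since Figla was the only bound oocyte gene, no other pair could have had a peak at both genes.

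Short motifs were counted on both strands of the 300 bp from 250 bp before to 50 bp after each reference TSS. The E-box CANNTG, the letters that helix-loop-helix factors such as FIGLA and SOHLH1 recognise, was in 9 of the 10 oocyte promoters and in 69.4% of all protein-coding ones, 78.0% of the CpG-poor. Zp1, Zp2 and Zp3 held 3, 7 and 4 copies, Figla 4 and Lhx8 none. The form CACGTG, which is also counted as CANNTG, was in Sohlh1 (3 copies) and Zp3 (1 copy), against 7.78% of all promoters and 5.10% of the CpG-poor. TAATTG, a NOBOX element, was in none of the 10 and in 7.22% of all and 10.1% of the CpG-poor promoters. TAATTA, a core that homeodomain factors bind, was in Nlrp5 and Bmp15, against 4.79% of all and 7.30% of the CpG-poor. TTCCCGC, an E2F motif, was in Nlrp5 alone, against 5.73% of all and 2.18% of the CpG-poor. The Figla peak held 9 copies of CANNTG and 0 of each of the other 4. Among all WT peaks 86.4% held CANNTG, 29.3% CACGTG, 5.28% TAATTG, 2.39% TAATTA and 19.6% TTCCCGC.

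Further oocyte genes were counted by promoter class. Of a list of 35 further genes active in oocytes, 7 had a WT peak (20.0%, against 24.0% of all protein-coding genes) and 0 a KO peak. Among the 6 with a CpG-rich promoter 5 were bound, and among the 29 with a CpG-poor promoter 2 were, where the shares over all protein-coding genes were 44.1% and 7.74%. The count at CpG-poor promoters was thus near the background. Adding up the shares by CpG ratio gives 4.54 for this list. The highest scores were those of Cpeb1, a regulator of stored mRNA (score 931, fold enrichment 11.86), Taf4b, a germ cell subunit of the general transcription machinery (score 298, fold enrichment 6.80), and Kit, the receptor by which granulosa cells support oocyte growth (score 272, fold enrichment 6.59). Gpr3, a receptor that holds the oocyte in meiotic arrest, was unbound at a ratio of 0.74, and Tle6, a maternal factor, at 0.53.

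The remaining bound genes of that list are named after their values were seen. Ybx2, which encodes an mRNA-binding protein of germ cells, had a score of 196, and Zar1, a maternal factor gene, of 112. Both were CpG-rich. Sohlh2, the partner of Sohlh1, was bound at a CpG-poor promoter (ratio 0.52, score 89, fold enrichment 4.93), with the peak midpoint 16 bp from its TSS. Sohlh1 itself had a ratio of 0.36 and no peak. Zfp57 was bound at a further TSS, with a peak midpoint 109 bp from that site and 1616 bp from the reference TSS. Sohlh2 and Figla were thus both bound at CpG-poor promoters, at scores of 89 and 61.

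Paralogues of the oocyte genes were counted by family. None of 18 other Nlrp genes was bound, and all 18 were CpG-poor, the highest ratios being those of Nlrp4c (0.50) and Nlrp4f (0.37). Among 11 other genes with a zona pellucida domain 1 was bound, the CpG-rich Tgfbr3, a TGF-beta co-receptor gene (score 33), and Eng and Tecta were unbound at ratios of 0.40 and 0.37. Among 7 other Lhx genes 2 were bound, Lhx2 (score 159, at a TSS other than the reference one) and Lhx4 (score 37), both CpG-rich, whereas Lhx1 and Lhx5 were unbound at ratios of 0.86 and 0.83. Among 20 other Bmp and Gdf ligand genes 8 were bound, 6 of them CpG-rich. Bmp7 (score 260), Bmp8b (score 174) and Bmp8a (score 118) led them, and Gdf11 and Gdf7 were unbound at 0.83 and 0.78. The sums of shares by CpG ratio were 0.622 for the Nlrp genes, 0.779 for the zona pellucida domain genes, 2.38 for the Lhx genes and 5.38 for the ligands. The bound genes of these families were CpG-rich, apart from 2 ligand genes, Bmp4 (score 64) and Gdf1 (score 93), named after their values were seen. No difference between families was tested.

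Genes of the other ovarian cells were counted in the same way. Of 23 genes of granulosa and theca cells 6 were bound (26.1%). These were 4 of 7 with a CpG-rich and 2 of 16 with a CpG-poor promoter, against the same 44.1% and 7.74%. Of the 2 CpG-poor ones, Nr5a1, named after its values were seen, had its peak midpoint 676 bp from a further TSS. That midpoint lay 4030 bp from the reference TSS. The shares by CpG ratio add up to 3.89. The highest scores were those of Wt1 (107), Foxl2 (95) and Esr2 (76), transcription factor genes of the gonad, and Fst and Rspo1 were unbound at ratios of 0.83 and 0.78. None of these lists held a gene with a KO peak. The list of further oocyte genes shares Nlrp2, Nlrp4f and Nlrp14 with the Nlrp list.

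**Figure D4:**
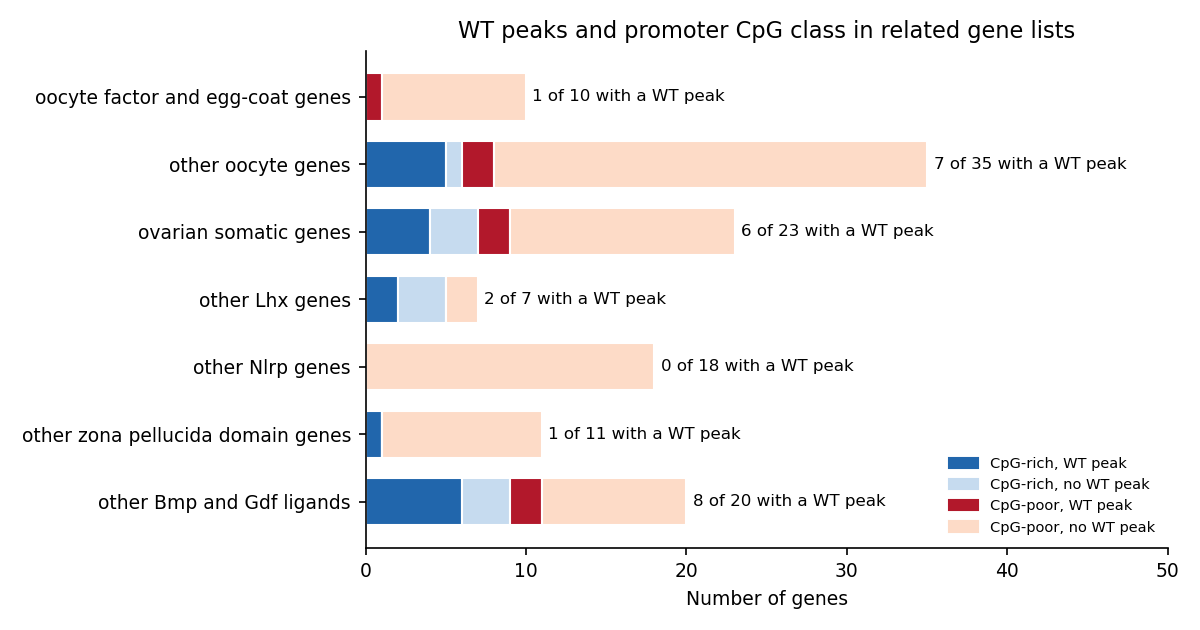
Number of genes in each list (bar length), split by promoter class (blue CpG-rich, red CpG-poor) and by a WT peak within 1 kb of any TSS (dark) or none (light). The 10 oocyte factor and egg-coat genes are all CpG-poor with 1 bound, and in the list of further oocyte genes 5 of 7 bound genes are CpG-rich.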

How the data were processed

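KDM5C ChIP-Seq and input libraries from WT and KO epiblast-like cells were sequenced by the authors, aligned to mm9 with Bowtie (1.1.2 in the submitters' processing notes, while the study's methods name another version), and reduced to unique reads. Peaks were called with MACS2 (2.1.0.20140616) against input, at a q-value limit of 0.1 and a fold enrichment above 1, on WT replicates together and on a single KO sample. For each peak the authors deposited a score, a ratio of immunoprecipitate over input (fold enrichment), and the −log10 of its q-value, with the −log10 of its p-value left unused here. Unique mapping loses repeated sequence.

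Coordinates count from 1 on mm9. Start sites came from GENCODE M1 and sequence from NCBIM37, the same assembly. Peaks on unplaced contigs were left out. CpG content, motif counts and distances were computed with Python 3.11.15, NumPy 2.4.6 and pysam 0.24.0, and intervals with SciPy 1.17.1. The 1 kb rule was checked on simulated peaks of known position in a separate implementation, not the one that made the reported calls. No test across genes was made. The 10 genes and all lists were chosen with earlier results of these data known. All genes of the main list were named. For each other list the 3 bound genes of highest score and up to 2 unbound genes of highest CpG ratio were named, and neighbours were named by nearest TSS. A list gene, Khdc3, was matched by an older symbol, and Nlrp4g and Zp4-ps found no match. Alternatives varied the window, peak position, start sites, score limit and CpG definition. The sequence at the further start sites of Lhx8 is not reported here.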

Additional observations from a re-analysis of the deposited data

How the results depend on the processing

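Of 33 alternative values for 7 results, 30 stayed within the limits set for calling them unchanged, 3 moved and 0 reversed. Part of the 30 could not have moved. The windows reached 5 kb at most, while the unbound gene closest to a WT peak, Zp1, lay 20.2 kb from it. The KO count was fixed too, since the nearest KO peak lay 4.47 Mb or farther from every gene with one on its chromosome. Where no gene was CpG-rich, the count of CpG-rich bound genes could only be 0. The count of bound oocyte genes was 1, always Figla, with windows of 500 bp, 2 kb and 5 kb, with the summit in place of the midpoint, with any overlap of 1 bp, and with coding start sites alone. With peaks at or above the WT median score it was 0, and at or above the 90th percentile it was 0, since the Figla peak scored 61 against limits of 82.0 and 320. The shares of all genes bound at these limits were not computed. The number of CpG-rich genes moved from 0 to 2 (Lhx8 and Gdf9) when the TSS of highest CpG ratio stood for each gene. The number of genes with a KO peak was 0 under each of its 8 alternatives. The gap in CpG ratio between Figla and the median of the unbound genes ran from 0.07 to 0.17. The median score of bound genes under both score limits, and the gap in CpG ratio under the limit at the median, gave no value, since no bound gene was left. No paired analysis was possible because no result comes from a test and only 1 list stands for each genotype.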

Other observations

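The deposited statistics of the Figla peak are not unique to it. Of 6916 WT peaks, 4 have the same score, fold enrichment and −log10 q, among them the WT peak nearest to Zp2. In the whole WT list 74.8% of peaks share all of these values with at least 1 other peak, so ranks in this list hold many ties.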
